A study of Arabidopsis thaliana with 8 samples.

Results

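The jacalin lectin genes AT1G52100 and AT1G33790 and the TRAF-like genes ZW9 (AT1G58270) and AT1G65370 were followed across shoot apices of Arabidopsis yabby mutants and wild type. They are 4 of the 22746 probe sets on the array, each measured by 1 probe set that the platform annotation assigns to that gene alone, and all 4 passed the filter that left 13888 probe sets for testing. AT1G52100, ZW9 and AT1G65370 passed it through the fil yab3 yab5 arrays. The genes were selected from their high signal in the fil yab3 yab5 mutant against wild type and against fil yab3, so their values in those comparisons are given as a description, without a test. The fitted difference between fil yab3 and wild type is read for AT1G33790, the gene above the lower end of the array in fil yab3. That choice used its fil yab3 values, which the same comparison measures. RNA was taken from seedling apices of the Landsberg erecta (Ler) ecotype, grown under short days for 14 days after sowing. Mutants with the alleles fil-8 yab3-2 yab5-1 were measured on 2 arrays and mutants with fil-8 yab3-2 on 2 arrays. Unmutated Ler was measured on 4 arrays. All plants shared the Ler background. No label tells whether replicate arrays stem from separate plantings, so a p-value here reflects just the scatter among the arrays, which may be technical.

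Jacalin-related lectins are plant proteins with a sugar-binding fold that often occurs in repeats. The family is large in Arabidopsis, and several of its members are found in complexes with beta-glucosidases, among them PYK10 of the endoplasmic reticulum bodies, or act beside myrosinases in glucosinolate breakdown. TRAF-like proteins carry a MATH domain, a protein-binding module named after the receptor adaptors of animals. In Arabidopsis some of them link substrates to cullin ubiquitin ligases. FIL, YAB3 and YAB5 belong to the YABBY genes, whose transcription factors promote outgrowth of the leaf blade and the identity of its lower side.

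Signal is the authors' GCRMA value on a log2 scale, in which values at or below 4 are close to the lower end of the array. A probe set was tested where it exceeded 4 on at least 2 arrays, and it passed at a limma adjusted p under 0.05. Where a group lay at or below 4 on every array, or on all but 1, the fold of a brighter group is given against 4, as a lower bound. Wild-type array 1 resembled array 2, and array 3 resembled array 4, with a Pearson correlation over probe sets of 0.970 in either pair and of 0.861 to 0.888 between the pairs. Of 45 spike-in controls, 42 were brighter on the first of these pairs than on any other array. Control transcripts of Arabidopsis had a mean 3′ minus 5′ difference of 0.732 and 0.599 log2 units in fil yab3 yab5, 1.41 and 0.593 in fil yab3, and 1.29, 1.44, 0.501 and 0.466 in wild type. YAB3, a mutated gene in both mutants, was lower in fil yab3 yab5 by a difference of -3.85 and in fil yab3 by -4.63 (limma adjusted p = 0.0129 and 0.0330). YAB5 lay at 5.28 and 5.02 in fil yab3 yab5, at 6.03 and 5.60 in fil yab3, and at 7.52, 7.17, 5.51 and 5.32 in wild type, with no difference past the threshold. FIL was not analysed here. Of the shoot meristem markers listed, only CLV3 and UFO have a named probe set of their own. UFO lay at 2.11 or below throughout, and CLV3 exceeded 4 on fil yab3 array 1 only, so these markers give no check of the apex label. Of the root markers listed, 3 of 9 have a named probe set of their own. PYK10 was bright on every array, from 11.71 to 13.94, while EXPA7, a root hair gene, and AT5G48940 lay at or below 4 on all of them.

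AT1G52100 signal was 8.74 and 10.32 on the fil yab3 yab5 arrays, 2.11 on each fil yab3 array and 2.11 on each wild-type array. The gene was near the lowest value of the table on all 6 arrays without the yab5-1 allele, and bright on both arrays with it. The fil yab3 yab5 mean of 9.53 ± 1.12 (SD, n = 2) was at least 46.1-fold above the level of 4, a bound that was 26.7-fold from array 1 and 79.6-fold from array 2. The same bound holds against fil yab3, since both groups lay below 4. In bulk RNA, a change in the number of cells that express a gene and a change in RNA per cell cannot be told apart. Sequence differences between the plants at the selected loci, or under their probes, were not analysed here. Their part in the signal was not tested.

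AT1G33790 showed a graded pattern. Its signal was 9.29 and 9.49 in fil yab3 yab5, 6.15 and 6.18 in fil yab3, and 2.98, 2.23, 4.02 and 2.96 on the 4 wild-type arrays. No array of any group overlapped with another group, and both mutants lay above wild type. The fil yab3 yab5 mean exceeded that of wild type by 6.34 ± 0.44 (SE) log2 units and that of fil yab3 by 3.22 ± 0.51, while fil yab3 exceeded wild type by 3.12 ± 0.44. Only 1 of the 4 wild-type arrays was above 4, at 4.02, so folds over wild type are given against 4. The fil yab3 yab5 mean was at least 41.8-fold and the fil yab3 mean at least 4.48-fold above that level, and fil yab3 yab5 was 9.33-fold above fil yab3.

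ZW9 was the brightest of these probe sets in fil yab3 yab5 as well as the one with the closest replicates there, at 11.89 and 12.01. In fil yab3 it was 4.25 on array 1 and 2.16 on array 2, and in wild type it was 2.16 on all 4 arrays. The mean of 11.95 ± 0.08 (SD, n = 2) in fil yab3 yab5 was at least 248-fold above the level of 4. The single fil yab3 value above 4 came from the array with the 3′ minus 5′ difference of 1.41, against 0.593 on the other fil yab3 array; its part in the value was not tested.

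AT1G65370 signal was 8.51 and 9.71 in fil yab3 yab5, 2.64 and 2.52 in fil yab3, and 2.85, 3.52, 3.18 and 3.12 in wild type. The fil yab3 yab5 arrays stood apart, and the other 6 values were all under 4. The fil yab3 yab5 mean of 9.11 ± 0.85 (SD, n = 2) was at least 34.5-fold above the level of 4, with a bound of 22.8-fold from array 1 and 52.4-fold from array 2.

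**Figure D1:**
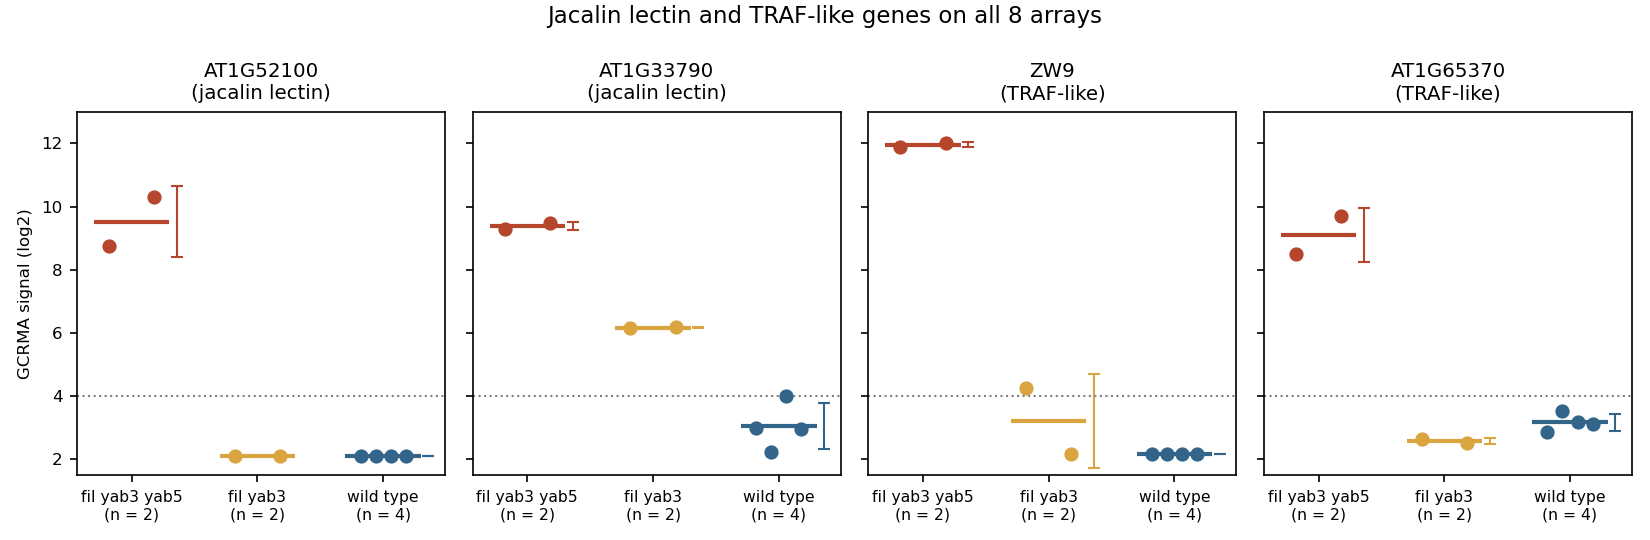
GCRMA signal (log2, vertical axis) of AT1G52100, AT1G33790, ZW9 and AT1G65370 on each array, grouped as fil yab3 yab5, fil yab3 and wild type. Points are arrays, thick lines are group means, bars beside them are ± SD, and the dotted line marks log2 4; only AT1G33790 has both fil yab3 arrays, at 6.15 and 6.18, above that line.

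In every fil yab3 yab5 array, all 4 genes exceeded every wild-type array and every fil yab3 array. Among all tested probe sets 15.5% lay higher on every fil yab3 yab5 array than on every wild-type array, and 20.2% higher than on both fil yab3 arrays. With all 8 arrays fitted, 3.87% of probe sets passed the threshold between fil yab3 yab5 and wild type, 2.22% as higher and 1.66% as lower. Between fil yab3 yab5 and fil yab3, 0.677% passed, 0.547% as higher and 0.13% as lower. These comparisons chose the 4 genes, so nothing is read from their number. AT1G33790 was higher in fil yab3 yab5 by 5.90 log2 units against wild-type arrays 3 and 4 and by 6.78 against arrays 1 and 2. The other 3 genes were below 4 on all wild-type arrays, and their bounds do not depend on which of those arrays are used.

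The comparison of fil yab3 with wild type asks whether these genes differ where fil-8 and yab3-2 are present without yab5-1. Over all probe sets 0.166% passed the threshold, 0.0936% as higher and 0.072% as lower, and 6.94% had an unadjusted p under 0.05. Low signal on the fil yab3 and the wild-type arrays was part of how the genes were selected, so the arrays of both groups had been used. Both comparisons with wild type share its 4 arrays. AT1G33790 was singled out by its fil yab3 values, so its adjusted p here is no independent support. AT1G33790 did not pass, with a difference of 3.12 ± 0.44 (limma, Benjamini-Hochberg adjusted over 13888 probe sets, adjusted p = 0.0774). It was higher on both fil yab3 arrays than on all 4 wild-type arrays, as were 8.61% of tested probe sets. The difference was 2.68 against wild-type arrays 3 and 4 (limma adjusted p = 0.0707) and 3.56 against arrays 1 and 2 (limma adjusted p = 0.00308). Without wild-type array 3, the highest of the 4, it was 3.44 and passed (limma adjusted p = 0.0262). ZW9 exceeded 4 on fil yab3 array 1 alone among these 6 arrays. AT1G52100 and AT1G65370 were below 4 on all 6, so no difference between fil yab3 and wild type can be read for them.

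Ordered by level, AT1G33790 was highest in fil yab3 yab5, intermediate in fil yab3 and lowest in wild type, and neighbouring groups in that order differed by more than their spread on the arrays. Of the tested probe sets, 2.27% had each fil yab3 yab5 array above each fil yab3 array and these above each wild-type array. For AT1G52100 and ZW9, fil yab3 yab5 was highest and the other groups were not separated beyond their spread. AT1G65370 in fil yab3 yab5 was likewise highest, and its values in fil yab3 and wild type, all under 4, were not ordered.

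The remaining genes of both families were examined for similar patterns. The jacalin list held 48 loci, of which 20 besides AT1G52100 and AT1G33790 have a named probe set of their own. Listed loci without one may be among the 6098 tested probe sets that are unnamed here, which were not searched for them. On all 8 arrays 14 of these 20 lay at or below log2 4, and 5 were tested. None of the 5 passed in any comparison (limma). Between fil yab3 yab5 and wild type 1 of the 5 had an unadjusted p under 0.05, as did 20% of all probe sets, and none did in the other comparisons. The median difference of the 5 was 0.81 between fil yab3 yab5 and wild type, -0.11 between fil yab3 and wild type and 0.92 between fil yab3 yab5 and fil yab3. Over all tested probe sets these medians were -0.03, 0.01 and -0.03. Each median of the 5 is the value of AT1G52000, whose difference between fil yab3 yab5 and wild type was 0.81 ± 0.92 (SE). AT1G52000 was 9.31 and 8.57 in fil yab3 yab5, 7.78 and 8.25 in fil yab3, and 9.66, 8.53, 5.89 and 8.43 in wild type.

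JAL33, a jacalin-related lectin, had the largest difference of the 5 from wild type. Its signal was 8.80 and 10.55 in fil yab3 yab5, 8.25 and 9.14 in fil yab3, and 7.55, 6.47, 8.60 and 8.21 in wild type. The fil yab3 yab5 arrays lay above all wild-type arrays by a small margin, and the difference was 1.97 ± 0.70 (limma adjusted p = 0.178). It was 2.67 against wild-type arrays 1 and 2 (limma adjusted p = 0.0406), 1.27 against arrays 3 and 4 (limma adjusted p = 0.251) and 1.09 without fil yab3 yab5 array 2 (limma adjusted p = 0.786). It passed in 1 of 17 alternatives. JAL34 signal was 9.66 and 11.56 in fil yab3 yab5, 9.20 and 10.55 in fil yab3, and 8.79 to 10.26 in wild type, with overlap in each comparison against wild type. AT1G19715, on the jacalin list, stayed between 9.48 and 10.12 on all arrays and differed by -0.02 ± 0.22 between fil yab3 yab5 and wild type.

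The TRAF-like list held 74 loci, including an unbroken run of AT3G58 loci that may hold genes of other families. Besides ZW9 and AT1G65370, 23 of them have a named probe set of their own, and others may be among the unnamed probe sets. Of these, 15 lay at or below log2 4 on all arrays and 8 were tested. None of the 8 passed in any comparison (limma), and each comparison had 1 with an unadjusted p under 0.05, where 20% of all probe sets did between fil yab3 yab5 and wild type and 8.58% between fil yab3 yab5 and fil yab3. Their median difference was 0.01 between fil yab3 yab5 and wild type, -0.13 between fil yab3 and wild type and 0.13 between fil yab3 yab5 and fil yab3.

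AT3G28220, on the TRAF-like list, had a signal of 9.48 and 10.18 in fil yab3 yab5, 9.54 and 10.00 in fil yab3, and 11.33, 11.33, 8.91 and 11.46 in wild type. Its differences from wild type were -0.93 ± 0.73 in fil yab3 yab5 and -0.99 ± 0.73 in fil yab3 (limma adjusted p = 0.530 and 0.793). Wild-type array 3 lay apart from the other wild-type arrays, and without it the fil yab3 yab5 difference was -1.55 (limma adjusted p = 0.0388). The difference was -1.50 against wild-type arrays 1 and 2 (limma adjusted p = 0.0200), -0.36 against arrays 3 and 4 (limma adjusted p = 0.816) and -0.58 without fil yab3 yab5 array 1 (limma adjusted p = 0.900), and it passed in 3 of 17 alternatives. AT3G20370 had a difference of 1.79 ± 0.70 between fil yab3 yab5 and wild type (limma adjusted p = 0.212), with values of 9.17 and 11.58 in the mutant and 7.85 to 9.27 in wild type. AT5G43560 lay between 8.63 and 9.66 on all arrays. BPM3, which belongs to the adaptors of cullin ligases, lay between 8.82 and 9.24. AT4G00780, chosen after its values were seen, was 7.63 and 7.58 in fil yab3 yab5, 6.78 and 6.58 in fil yab3, and 7.31 to 7.76 in wild type. Its fil yab3 difference from wild type, -0.84 ± 0.21, did not pass (limma adjusted p = 0.429). A probe set shared by the listed loci AT2G32880 and AT2G32870, which names neither alone, was 5.96 and 5.57 in fil yab3 yab5, 4.28 and 4.36 in fil yab3, and 4.73 to 7.20 in wild type.

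Genes known to work with jacalin lectins in endoplasmic reticulum bodies were given beside them. Of 12 listed genes 6 have a named probe set of their own, and 5 were tested, JAL33 and JAL22 included. None passed in any comparison (limma), and 3 of the 5 had an unadjusted p under 0.05 between fil yab3 yab5 and wild type, where 20% of all probe sets did. PYK10, the beta-glucosidase of these bodies, was 13.25 and 13.94 in fil yab3 yab5, 12.58 and 13.33 in fil yab3, and 11.74, 11.71, 12.95 and 12.62 in wild type. Its difference of 1.34 ± 0.45 between fil yab3 yab5 and wild type did not pass (limma adjusted p = 0.154). NAI2, needed to form the bodies, was 9.16 and 9.91 in fil yab3 yab5, and 6.60 to 8.71 in wild type (limma adjusted p = 0.203). PYK10 and NAI2 were lower on wild-type arrays 1 and 2 than on arrays 3 and 4, and the part of this split in their differences was not tested.

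Defence genes were covered thinly by named probe sets. As 6098 of the tested probe sets are unnamed here, listed genes without a named one may still be measured. Of the 12 salicylate and basal defence genes, SAG101 alone has a named probe set of its own. It lay at or below log2 4 on all arrays. Of the 12 jasmonate response genes, PDF1.2 alone has one, at 4.20 and 4.18 in fil yab3 yab5, 4.18 and 4.27 in fil yab3, and 4.05 to 4.22 in wild type (limma adjusted p = 0.940 for fil yab3 yab5 against wild type). None of the myrosinase system or flower genes listed have a named probe set of their own. RCA, Rubisco activase, was the single mature leaf marker with a named probe set of its own. It lay at 14.44 and 14.50 in fil yab3 yab5, 14.21 and 14.38 in fil yab3, and 14.38 to 15.04 in wild type, with no difference past the threshold.

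All 4 genes lie on chromosome 1, but they are not adjacent in the annotation's gene order. There are 814 annotated genes between AT1G52100 and ZW9 and 856 between ZW9 and AT1G65370, and AT1G33790 is 1748 genes away from AT1G52100. Among the 80 genes within 10 positions of any of them, 21 have a named probe set of their own. Of these 7 were tested, 3 around AT1G52100, 3 around AT1G33790 and 1 near ZW9. None of the 7 passed in any of the 3 comparisons (limma). The pseudogene AT1G52090 directly beside AT1G52100 lay at 2.11 on every array. The jacalin list members AT1G52050, AT1G52060 and AT1G52070, 6 to 8 genes away from AT1G52100, lay at 2.11 or below on all arrays. The nearest genes with a named probe set on either side of AT1G33790 were AT1G33780 and AT1G33810, chosen after their values were seen. They differed between fil yab3 yab5 and wild type by 0.19 and -0.69 (limma adjusted p = 0.661 and 0.128).

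**Figure D2:**
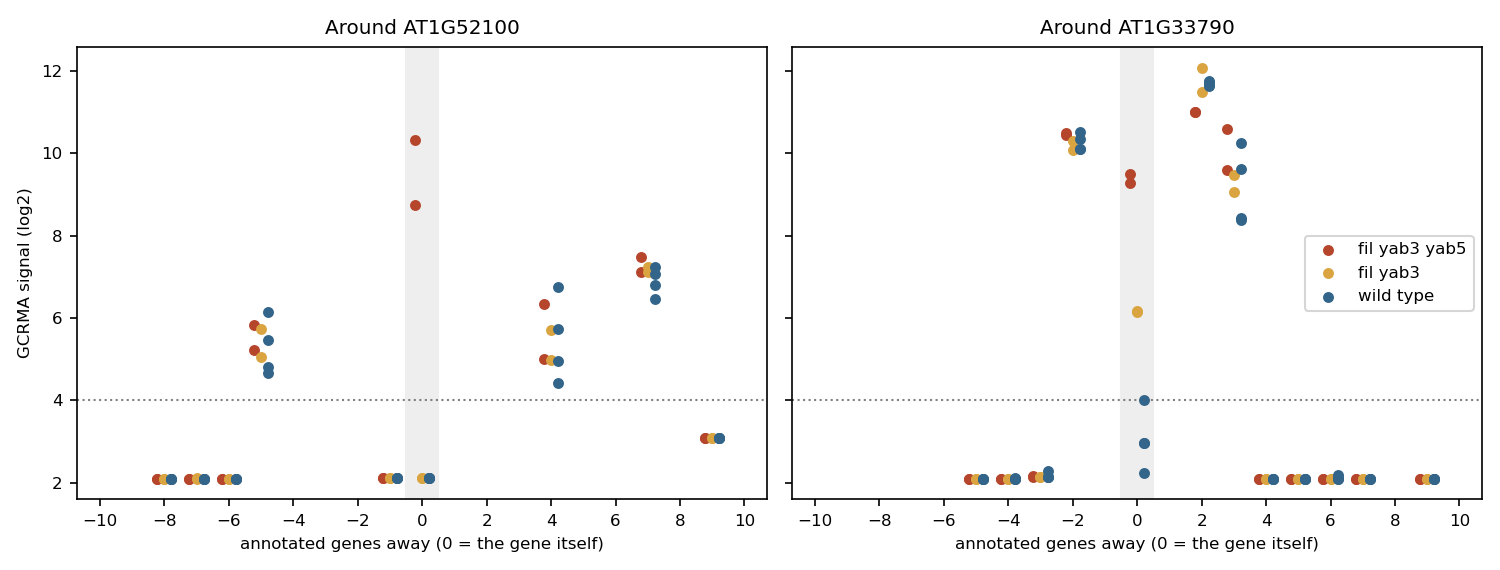
GCRMA signal (log2, vertical axis) of each named probe set within 10 annotated genes of AT1G52100 and AT1G33790 (horizontal axis, in genes away), with each array as a point coloured by group. The points at 0 separate fil yab3 yab5 from wild type, while among the neighbours only AT1G33810, at 2, has both fil yab3 yab5 arrays outside the wild-type range.

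On the stretch of chromosome 1 from AT1G52100 to AT1G65370, 296 other genes were tested. Of these 14 (4.73%) were called higher and 5 (1.69%) lower in fil yab3 yab5 than in wild type. Over all chromosomes, without the 4 genes, 2.08% were called higher and 1.7% lower, and on chromosome 5, the next in this share, 3.29% were called higher. On the rest of chromosome 1 the share called higher was 1.47%. Between fil yab3 and wild type 3 of the 296 genes (1.01%) were called higher, against 0.122% over all chromosomes. On the rest of chromosome 1 it was 6 of 1637 (0.367%), and on chromosomes 2 to 5 it was 0 of 5414. Between fil yab3 yab5 and fil yab3, 7 of the 296 (2.36%) were called higher and 1 (0.338%) lower. The share called higher was 0.305% on the rest of chromosome 1, 0.536% on chromosomes 2 to 5 and 0.558% over all chromosomes. The stretch was marked out by the selected genes themselves, so these shares are a description.

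The genes with the most similar profiles were found by the root mean square difference between log2 profiles, each centred on its mean over the 8 arrays. Likeness here includes the comparisons that chose the genes, and no test was made. The 4 selected genes were left out of the search, and their distances from each other are given apart. For AT1G52100 the nearest were AT2G25450 (0.493 log2 units), AT3G44430 (0.603) and AT5G56910 (0.688). AT3G44430 was 8.53 and 8.47 in fil yab3 yab5 and 2.11 on every fil yab3 and wild-type array. For ZW9 the nearest were AT2G25510 (0.719), AT2G25450 (0.853) and AT3G44430 (1.48). AT2G25510 was 11.94 and 12.26 in fil yab3 yab5 and 2.10 on all other arrays. For AT1G65370 they were AT1G63880 (0.417), AT3G44430 (0.446) and AT5G56380 (0.504). AT1G63880 lies on the chromosome 1 stretch from AT1G52100 to AT1G65370. AT1G52100 and AT1G65370 differed from each other by 0.636, less than either did from ZW9 (1.17 and 1.69).

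AT1G33790 had other nearest genes. They were BGLU45 (0.953), which encodes a beta-glucosidase, AT3G24450 (0.980) and AT5G11930 (0.980). BGLU45 (AT1G61810) lies on the chromosome 1 stretch from AT1G52100 to AT1G65370. BGLU45 was 7.22 and 7.21 in fil yab3 yab5, 6.37 and 6.53 in fil yab3, and 2.42, 2.36, 3.56 and 2.78 in wild type. Both mutants lay above wild type for each of these 3 genes. The step between fil yab3 yab5 and fil yab3 was 0.77 log2 units for BGLU45, 1.04 for AT3G24450 and 1.18 for AT5G11930, against 3.22 for AT1G33790. The distance of AT1G33790 to the other selected genes was 1.67 to AT1G52100, 1.67 to AT1G65370 and 2.10 to ZW9.

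**Figure D3:**
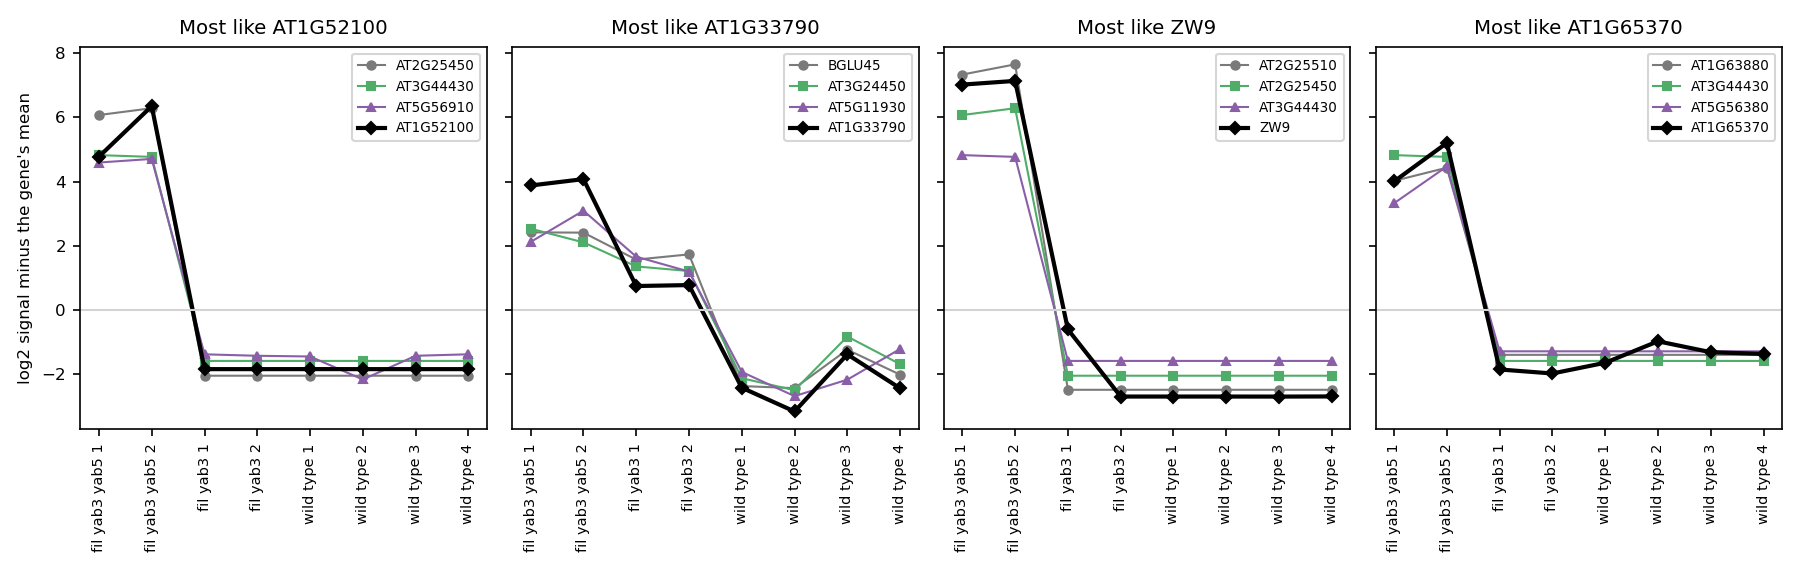
Log2 signal minus the gene's own mean over 8 arrays (vertical axis) on each array (horizontal axis) for AT1G52100, AT1G33790, ZW9 and AT1G65370 (black) and the 3 genes most like each. The profiles of AT1G33790 and its nearest genes are raised on both fil yab3 arrays as well, while those of the nearest genes of the other panels stay near their lowest level there.

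Very few probe sets shared the large difference. Only 7 of the 13888 (0.0504%) lay above log2 8 on both fil yab3 yab5 arrays and at or below 4 on all wild-type arrays, levels chosen after the values were seen. They were AT1G52100, ZW9, AT1G65370, AT2G25450, AT2G25510, AT3G44430 and AT5G56910. In fil yab3 each of them was at or below 4 on both arrays, except ZW9 on array 1, which leaves 6 (0.0432%). AT2G25450 and AT2G25510, also among the nearest profiles above, lie on chromosome 2. YAB5 (AT2G26580), mutated in fil yab3 yab5 alone, lies on that chromosome too. The part of gene position in these values was not tested.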

How the data were processed

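Transcripts of 8 shoot apex samples were measured on 1-colour Affymetrix arrays, with 1 sample on each. The authors deposited log2 values for 22810 probe sets, for which the submitters' processing notes name GCRMA and R 2.7.2; the settings were not stated there or in the labels. GCRMA normalizes by quantiles, and values run from 2.10 to 15.76. That they are on a log2 scale was inferred from this range.

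After 64 controls were set aside, 13888 probe sets above 4 on at least 2 arrays entered limma 3.58.1 under R 4.3.3 (lmFit and eBayes, two-sided), fitting all 8 arrays as 3 groups with 5 residual degrees of freedom and Benjamini-Hochberg adjustment (threshold 0.05). Arrays at the lower end show no spread, which lowers the SE of such genes. With few arrays per group, precision is limited by their number. Where a group lay at or below 4 throughout, or on 3 of its 4 arrays, the brighter mean over that level is given as a lower bound. The fit was tested on simulated data.

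Of the probe sets tested, 7512 name 1 gene, 278 several and 6098 are unnamed here. Names and gene order come from TAIR10.1; 13436 of 13513 single-gene assignments matched. The family and marker lists were written by hand. The annotation text names such a family for 13 loci, all of them on the lists. The genes and lists were chosen with earlier results of these data known. By rule, list members that passed were named, or otherwise the 3 brightest of each family, up to 2 of other lists, adjacent genes and the 3 most similar profiles. JAL22, AT1G52000, BPM3, AT4G00780, AT5G26280, AT3G17380, AT1G33780 and AT1G33810 were named after their values were seen. Sequences, and whether probes match relatives of a gene, were not analysed here. Alternatives were other filters (none, or 6 in place of 4), further scaling of the arrays by quantiles or medians, robust eBayes with a trend, each wild-type pair alone, only the groups compared, a replicate block and leaving out each array. Figures were drawn with matplotlib 3.10.9.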

Additional observations from a re-analysis of the deposited data

Results flagged for a closer look

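Among 40 named genes and tested neighbours, 4 had 1 wild-type array far from the other 3. The rule was set to flag about 5% of groups of 4 alike arrays by chance. The wild-type arrays fall into pairs, so that share need not hold here. AT3G28220 lay at 8.91 on wild-type array 3 and at 11.33 to 11.46 on the others. BPM3 lay at 9.00 on wild-type array 3 and at 9.16 to 9.19 on the others. AT3G17380, of the TRAF-like list, lay at 4.17 on wild-type array 3 and at 3.46 to 3.56 on the others, near the lower end of the array. AT5G56910 lay at 2.56 on wild-type array 2 and at 3.28 to 3.35 on the others. These values are all under 4, so nothing is read from that gap.

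AT1G65370 was picked out because its listed values in fil yab3 yab5 and in fil yab3 lay on opposite sides of wild type, with a listed difference of -0.59 between fil yab3 and wild type. The fil yab3 and wild-type values were all under 4, so no direction can be read between them. The difference did not pass in the fit (limma adjusted p = 0.783).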

How the results depend on the processing

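Over the alternatives the listed difference between fil yab3 yab5 and wild type ranged from 6.63 to 8.21 for AT1G52100, 5.90 to 6.78 for AT1G33790, 9.73 to 9.86 for ZW9 and 5.34 to 6.54 for AT1G65370. That of ZW9 between fil yab3 yab5 and fil yab3 ranged from 7.70 to 9.79. Values below 4 on a side limit what these ranges show. AT1G33790 between fil yab3 and wild type passed in 3 of 17 alternatives. It passed against wild-type arrays 1 and 2 and with the replicate block (3.56 in each, limma adjusted p = 0.00308 and 0.0103) and without wild-type array 3; its adjusted p ranged from 0.00308 to 0.603.

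In the jacalin list 1 gene, JAL33, was called between fil yab3 yab5 and wild type with wild-type arrays 1 and 2 only. In the TRAF-like list 1 gene, AT3G28220, was called in fil yab3 yab5 and 1 in fil yab3, again AT3G28220, against those arrays and with the replicate block. Leaving out 1 array gave 0 to 1 calls in fil yab3 yab5, the 1 without wild-type array 3. Using the hand-written lists alone could not change these counts, since the annotation added no gene to them.

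Counts over all probe sets moved more. Against 538 for fil yab3 yab5 and wild type, there were 1265 with wild-type arrays 3 and 4 only, 3366 with arrays 1 and 2 only, 2500 with the replicate block, 305 with only the groups compared, and 46 to 578 without 1 array (46 and 47 without fil yab3 yab5 array 1 and 2, 303 and 299 without fil yab3 array 1 and 2, 317 and 353 without wild-type array 1 and 4). Against 23 for fil yab3 and wild type, there were 49, 1790, 950 and 14 under these settings, 12 with no filter, and 0 to 26 without 1 array (the 0 without fil yab3 array 1, limma, with 433 at an unadjusted p under 0.05; 9 without fil yab3 array 2, 15 and 11 without wild-type array 1 and 4). Against 94 for fil yab3 yab5 and fil yab3, there were 144 with no filter, 55 with a filter at 6, 143 with wild-type arrays 3 and 4 only, 149 with arrays 1 and 2 only, 53 with only the groups compared, and 11 to 94 without 1 array (11 without either fil yab3 yab5 array, 57 without fil yab3 array 1). The cause was not tested.

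Arrays of different groups share only a replicate number. Differences between arrays 1 and 2 correlated at 0.0039 between the mutants, -0.097 between wild type and fil yab3 and -0.054 between wild type and fil yab3 yab5. With the block, wild-type arrays 3 and 4 carry numbers of their own and add nothing to the differences.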

Other observations

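The arrays of fil yab3 yab5 differed from each other for some of these genes and not for others. Of the 17 tested genes of both lists, 7 differed by over 1 log2 unit between the 2 arrays, and all 7 were higher on array 2. AT1G52100, with a difference of 1.58, and AT1G65370 were among the 7. The difference was 0.20 for AT1G33790 and 0.12 for ZW9. It was 1.75 for JAL33, 1.90 for JAL34, 1.82 for JAL22, 2.41 for AT3G20370 and 2.12 for AT5G26280. The median over all tested probe sets was -0.02. In fil yab3, 4 of the 17 differed by over 1 log2 unit between arrays. The share of all tested probe sets that differed by that much was not counted for either mutant. Nothing is therefore read from the 7 or the 4 about these families.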
